A study of Mus musculus with 13 samples.

Results

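R-loops over the genes of the RNA polymerase II machinery were examined in N2a cells, a mouse neuroblastoma line. The set held the protein-coding genes whose symbols begin with Polr2 (a to l), Med, Gtf2, Taf or Supt followed by a digit, 88 gene records of the 22380 protein-coding records in the GENCODE vM1 annotation of mm9, with 86 distinct symbols because Taf9 and Med20 each have 2 overlapping records. Each record counts as a member below, so Taf9 and Med20 can enter a count with both records. A gene was counted as called in a library when a peak overlapped its bounds extended by 1 kb on either side. The bases of that window lying under peaks are its covered bases. R-loops were captured by DRIP-seq, in which genomic DNA is cut with restriction enzymes and hybrids of RNA and DNA are pulled down with the S9.6 antibody.

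Cells were transfected with scramble siRNA (siScramble, genotype WT in the labels), siRNA against DDX1, a putative RNA helicase (siDDX1, DDX1 knockdown), or siRNA against EXOSC3, a structural subunit of the RNA exosome (siEXOSC3, EXOSC3 knockdown). Each group had 3 libraries whose genomic DNA was not digested before the pull-down, called untreated here, and 1 library whose DNA was first digested with RNase H, which degrades the RNA of such hybrids. Replicates were separate plates of 1 cell line, so p-values measure the spread between cultures of that line. In 12 of 12 lists the treatment in the peak names differed from the sample title in 1 fixed rotation. Groups are those of the titles and are called labelled siScramble, labelled siDDX1 and labelled siEXOSC3. By the peak names, these 3 would be siDDX1, siEXOSC3 and siScramble, in that order.

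RNA polymerase II makes the messenger RNA of the cell. Its subunits are encoded by the Polr2 genes. The general transcription factors (TFIIA to TFIIH, most Gtf2 genes) and the TBP-associated factors of TFIID (most Taf genes) place the polymerase at promoters. Mediator (Med genes) relays signals from bound activators to the polymerase. The Supt genes encode elongation factors, histone chaperones and subunits of the SAGA coactivator. The symbol rule also takes in Taf1b, Taf1c and Taf1d, which serve RNA polymerase I and are no part of TFIID. R-loops form as RNA re-pairs with its template behind the polymerase, most readily where the new RNA is rich in G, that is, where the coding strand carries more G than C.

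Peaks over these genes were often bounded by the restriction cuts. Over the 9 untreated libraries, 54.6 ± 3.93% (SD, n = 9) of the peaks over member genes had at least 1 edge on the exact cut of 1 of the 5 enzymes, against 56.1 ± 3.85% (SD, n = 9) of the peaks over any protein-coding gene. Of the 3408 edges of member peaks, 1048 (30.8%) lay on a cut. When the left edges of all peaks were shifted by 300 bases, 0.112% fell on a cut. HindIII (AAGCTT) took 257 of these edges, BsrGI (TGTACA) 247, XbaI (TCTAGA) 235 and SspI (AATATT) 208, and EcoRI (GAATTC) took the remaining 2.96% of all member edges.

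The peak across the start of Taf15, an RNA-binding protein of the FET family, had the same first and last base in 9 of 9 untreated libraries (chr11:83285203-83288178). The start peak of Gtf2a1, which encodes a subunit of TFIIA, kept both edges in 8 libraries (chr12:92827145-92829099). That of Gtf2h1, which encodes a subunit of TFIIH, kept them in 7 (chr7:54049905-54052702), and that of Supt6h, a histone chaperone of elongation, in 6 (chr11:78058455-78060300). The 30 bases around the edges that lay on a cut are shown because they carry the limit on resolution. They are given on the plus strand of mm9, with the enzyme site in capitals, and none overlaps an annotated exon.

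Taf15, left edge, SspI: cttcctgcttaaAATATTttgttttaagac
Taf15, right edge, BsrGI: cagaaaaggaTGTACAagtgcatccttagg
Gtf2a1, right edge, HindIII: aaggctaggaAAGCTTtgttctccctctgt
Gtf2h1, left edge, SspI: tgcggttcattaAATATTctcaaccaataa
Gtf2h1, right edge, SspI: ttggctccaatcAATATTctcaatatctag
Supt6h, left edge, SspI: acaaccaattctAATATTtatgataggtct
Supt6h, right edge, XbaI: ctcgtattgtTCTAGAtacaggaaatacag

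The left edge of the Gtf2a1 peak was on no cut of the 5 enzymes. The other 7 edges lay on cut sites, so the widths of 2976 bases at Taf15, 2798 at Gtf2h1 and 1846 at Supt6h are distances between cut sites, and the extent of the hybrid within them was not measured.

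A second set of sequences shows what lies just inside these start peaks. For each gene, the 120 bases of intron with most runs of 3 or more G on the coding strand were taken from the first 1500 bases below the 5′ end, with no exon of any gene inside. Windows of the same 4 genes and of Med22, the Mediator member with the highest fold enrichment, are followed by windows of Polr2g and Med14, picked among the 11 members with no peak in any untreated library. Runs of G are in capitals.

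Gtf2a1, chr12:92827678-92827797, minus strand: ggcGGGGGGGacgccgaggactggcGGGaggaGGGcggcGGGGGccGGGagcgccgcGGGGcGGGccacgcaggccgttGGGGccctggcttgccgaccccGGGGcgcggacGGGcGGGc
Taf15, chr11:83286728-83286847, plus strand: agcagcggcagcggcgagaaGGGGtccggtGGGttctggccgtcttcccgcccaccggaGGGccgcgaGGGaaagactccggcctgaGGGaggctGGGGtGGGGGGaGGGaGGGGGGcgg
Supt6h, chr11:78058900-78059019, minus strand: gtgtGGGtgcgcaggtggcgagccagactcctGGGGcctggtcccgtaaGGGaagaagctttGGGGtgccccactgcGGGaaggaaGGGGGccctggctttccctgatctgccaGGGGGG
Med22, chr2:26765668-26765787, minus strand: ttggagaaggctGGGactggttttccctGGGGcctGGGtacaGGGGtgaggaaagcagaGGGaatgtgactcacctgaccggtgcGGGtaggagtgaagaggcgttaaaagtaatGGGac
Gtf2h1, chr7:54051663-54051782, plus strand: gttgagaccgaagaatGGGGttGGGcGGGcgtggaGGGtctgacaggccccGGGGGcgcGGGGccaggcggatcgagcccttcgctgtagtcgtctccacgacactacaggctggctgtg
Polr2g, chr19:8872828-8872947, minus strand: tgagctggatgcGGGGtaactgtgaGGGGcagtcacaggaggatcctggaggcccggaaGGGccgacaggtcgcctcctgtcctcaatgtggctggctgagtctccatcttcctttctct
Med14, chrX:12338430-12338549, minus strand: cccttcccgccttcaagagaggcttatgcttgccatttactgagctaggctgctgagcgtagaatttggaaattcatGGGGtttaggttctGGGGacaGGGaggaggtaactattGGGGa

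The Gtf2a1 window held 11 such runs and the Taf15 window 9, counts that 3.95% and 13.2% of all protein-coding genes with such a window reached or passed. Supt6h and Med22 held 7 runs each (34.5% of genes), and Gtf2h1 held 6 (49.5%). Polr2g and Med14 held 3 and 4, which 92.1% and 80.8% of genes reached or passed. Over all members the richest window had a median of 7 runs for starts called in all 9 libraries. The median was 6 for those called in 1 to 8 and 4.5 for those called in none, and over all genes 7, 6 and 5. Member counts ran from 2 to 11, 2 to 11 and 3 to 10 in these classes, which thus overlapped. Gtf2a1 had the highest count of its class and Polr2g the lowest of its own.

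Most genes of the machinery carried R-loop peaks. Of 88 members, 39 (44.3%) were called in 9 of 9 untreated libraries, where the share of all protein-coding genes was 26.2%. Another 38 (43.2%, against 23.7%) were called in 1 to 8 libraries and 11 (12.5%, against 50.1%) in none. The all-gene figure includes genes that N2a cells do not transcribe, and expression was not used here. In sets of other widely used genes the share called in 9 of 9 was 55.8% for 52 proteasome subunit genes, 60% for 15 subunit genes of RNA polymerases I and III, and 54.5% for 11 Integrator genes. Of 32 further genes of the same pathway outside the rule, such as TBP, the Mediator kinase Cdk8 and its cyclin, the TFIIH kinase, P-TEFb and the PAF complex, 17 (53.1%) were called in 9 of 9.

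Libraries differed in how many members they called, from 51 in labelled siDDX1 replicate 2 to 72 in labelled siScramble replicate 3. The group means were 65.0 ± 10.4 for labelled siScramble, 60.3 ± 10.1 for labelled siDDX1 and 66.7 ± 4.04 for labelled siEXOSC3 (SD, n = 3 each), so that the groups overlapped. Covered bases followed the size of the peak list. Together the member windows had 108 kb under peaks in labelled siDDX1 replicate 2, whose list held 24167 peaks, and 262 kb in labelled siScramble replicate 3, whose list held 42170. Read depth was not given in the files, and its part in these differences was not tested. As a check on the cell line, 7 of 10 sympathetic neuroblast marker genes had a peak in at least 1 untreated library and 4 in 9 of 9, while of 10 markers of other cell types 4 had a peak in any and 2 in 9 of 9. A peak is not a level of expression.

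**Figure D1:**
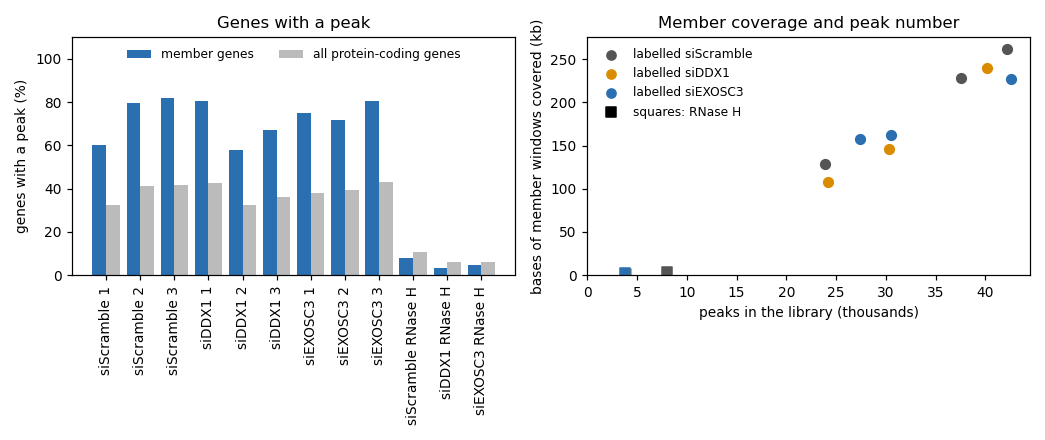
Left, percent of the 88 member genes and of all 22380 protein-coding genes with a peak in each library. Right, kb of member windows under peaks against the number of peaks in the library, 1 point per library coloured by the group of its title. Members were called more often than all genes in each of the 9 untreated libraries (58.0 to 81.8%), and less often in each of the 3 RNase H libraries (3.41 to 7.95%).

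Of the 12 polymerase subunits, 6 were called in 9 of 9 libraries, namely Polr2a, Polr2c, Polr2e, Polr2f, Polr2i and Polr2l. Polr2a encodes the largest, catalytic subunit with the C-terminal repeat domain. Its 24.6 kb gene had 7135, 12853 and 12354 covered bases in labelled siScramble, 13321, 4447 and 7357 in labelled siDDX1, and 7314, 7867 and 10065 in labelled siEXOSC3. The lowest value came from labelled siDDX1 replicate 2, the library with fewest members called. The 3 regions of this gene called in 9 of 9 libraries lay inside it, between 8924 and 23913 bases below its 5′ end, and a region across the start was called in 8.

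Polr2c, a subunit of the assembly platform of the enzyme, had the largest median coverage of any member, 11086 bases in a gene of 16.1 kb. Its 9 values ran from 8673 to 12816 bases, and the groups overlapped. The peaks lay between 219 and 14780 bases below the 5′ end, in 1 joined region. Polr2e, Polr2f and Polr2l, shared by the nuclear RNA polymerases, had medians of 4183, 2299 and 3538 covered bases. Polr2i, a small subunit that takes part in proofreading, had a median of 1253 and a lowest value of 263, again in labelled siDDX1 replicate 2.

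Polr2j was called in 8 libraries, Polr2b and Polr2h in 7 and Polr2k in 4. Polr2b encodes the second-largest subunit, which forms the active centre together with Polr2a, and its 39.2 kb gene had 0, 2881 and 1834 covered bases in labelled siScramble, 1446, 0 and 819 in labelled siDDX1, and 1245, 667 and 2140 in labelled siEXOSC3. Polr2k had 0, 749 and 931 bases in labelled siScramble, 959, 0 and 437 in labelled siDDX1, and 0 in each labelled siEXOSC3 library. Polr2d and Polr2g, which form the stalk of the enzyme, had no peak in any untreated library.

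**Figure D2:**
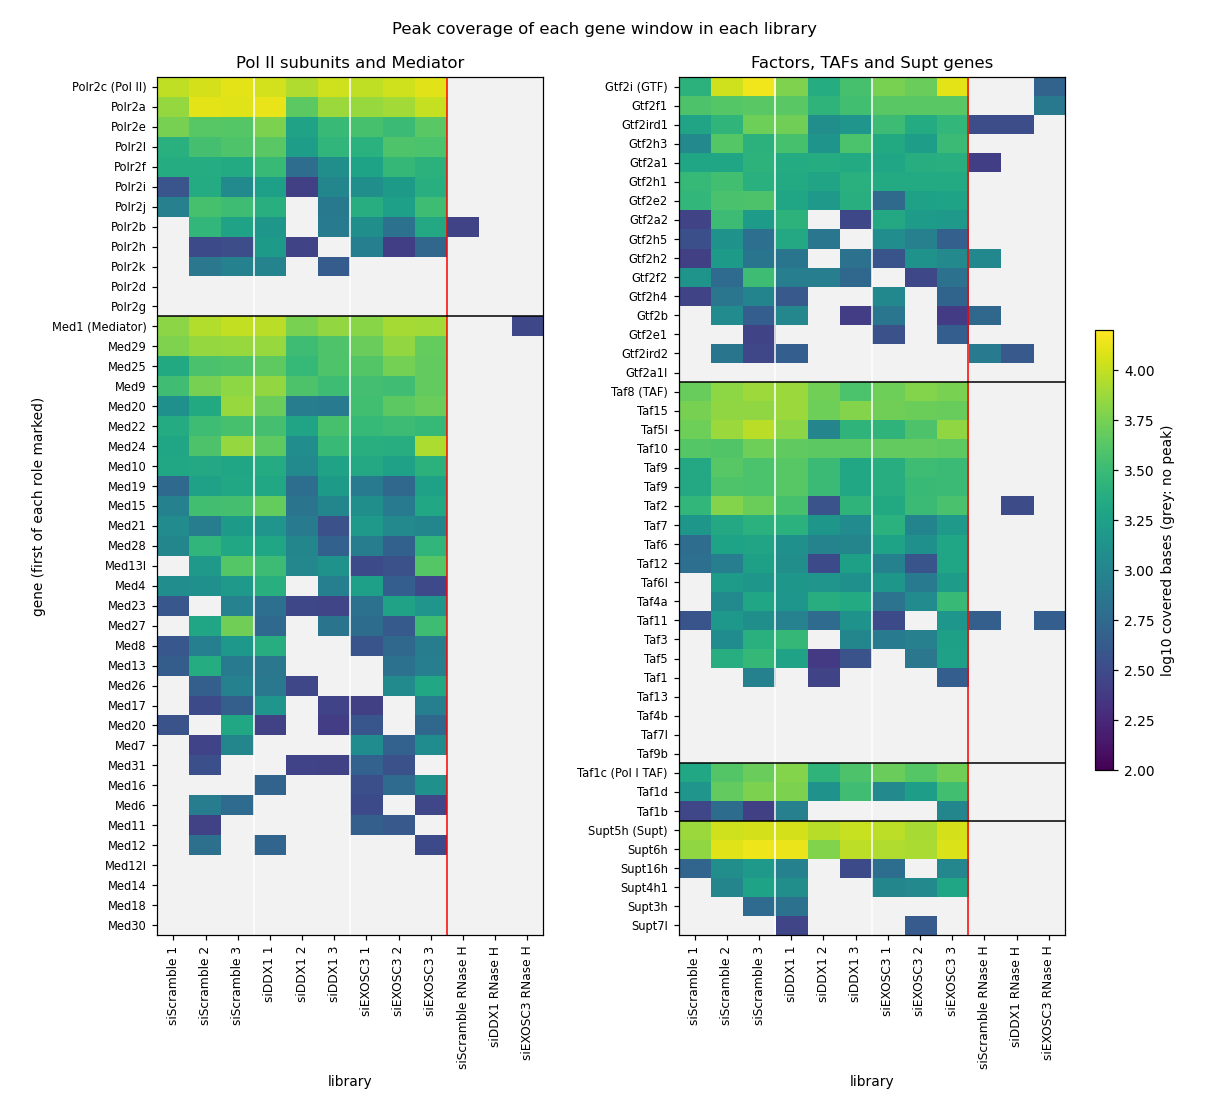
Covered bases of each member window (log10 colour scale, grey for no peak) in the 9 untreated libraries and, right of the red line, in the 3 RNase H libraries. Genes are grouped by role and ordered within a role by the number of untreated libraries with a peak. Of 88 records, 39 are filled across all 9 untreated libraries, 11 are empty in all 9, and 11 have a peak in an RNase H library.

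Of 31 Mediator records, 12 were called in 9 of 9 libraries and 4 in none (Med12l, Med14, Med18 and Med30). Med1, a nuclear receptor contact of the middle module, had the largest coverage in Mediator, with a median of 7924 bases and a range of 5673 to 9987. Med22, a head subunit, had a fold enrichment over background of 21.0 to 43.0 at its strongest peak, with a median of 30.6. The 5′ end of Med22 lies 87 bases from that of the ribosomal protein gene Rpl7a, transcribed the other way, and the start peak covers both. None of the 4 genes of the kinase module, which associates reversibly with Mediator, was called in 9 of 9, and Med13l was called in 8, Med13 in 6 and Med12 in 3.

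Among 16 Gtf2 genes, which include the TFII-I family (Gtf2i, Gtf2ird1 and Gtf2ird2), 7 were called in 9 of 9 libraries. Gtf2a1l, a germ-cell form of TFIIA, was called in none. Of 20 TBP-associated factor records, 10 were called in 9 of 9 and 4 in none, these being Taf13, Taf4b, Taf7l and Taf9b. Taf4b, Taf7l and Taf9b are paralogs of widely used TAFs. Of the 3 RNA polymerase I factors, counted apart from these 20, Taf1c and Taf1d were called in 9 of 9 and Taf1b in 5. The 2 TAFs with the highest fold enrichment were Taf15, with 17.4 to 41.5 and a median of 32.9, and Taf10, a histone-fold TAF shared by TFIID and SAGA, with a median of 16.3. Taf15 stood at the 97.1 percentile of all genes called in the same library (median over libraries), Med22 at 96.7, Supt5h at 90.1, Polr2c at 89.8 and Taf10 at 86.3.

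Supt5h encodes the large subunit of the elongation factor DSIF and was covered by 7447 to 11534 bases, with a median of 10259. Supt6h had a median of 9552. The small DSIF subunit gene Supt4h1 was called in 6 libraries, the FACT subunit gene Supt16h in 7, and the SAGA genes Supt3h and Supt7l in 2 each. Among the members with little coverage, Gtf2e1, Gtf2ird2, Med11 and Med12 were called in 3 libraries each and had a median of 0 covered bases.

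By gene length, members from 5 to 100 kb were called in 9 of 9 libraries in 42.9% (5 to 10 kb), 42.1% (10 to 20 kb), 55% (20 to 50 kb) and 45.5% (50 to 100 kb) of cases, against 29.1%, 32.6%, 32.8% and 31.8% of all genes. Of the 10 members under 5 kb, 6 were called in 9 of 9 (60%), where the share of all genes of that length was 13.2%. Of the 7 members of 100 kb or more none was, where the share of all genes was 25.2%. These end classes hold few members and the differences were not tested.

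Peaks gathered at the 5′ ends of these genes, but most of the coverage lay elsewhere. The 1 kb on either side of the start held 17.7% of the covered bases of member windows, against 15.6% for all genes. Both shares were summed over the 9 untreated libraries. Within 1 kb of the 5′ end, 15 of 88 members (17.0%) had a peak in 9 of 9 libraries, 32 (36.4%) in none, and the corresponding shares of all genes were 11.2% and 65.9%. Within 1 kb of the 3′ end, 15 members (17.0%, against 10.3%) had a peak in 9 of 9, and 5 members (5.68%, against 4.17%) had both. Of the 39 members called in 9 of 9 libraries, 8 (20.5%, against 17.8%) had no peak within 1 kb of the 5′ end in any library. Exons took 31.1 ± 1.81% (SD, n = 9) of the covered bases inside member genes, where exons make up 9.83% of their length. For all genes these values were 28.9 ± 1.86% (SD, n = 9) and 7.67%.

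Calls at the 5′ and 3′ ends differed among the polymerase subunits. Polr2l alone was called at both ends in 9 of 9 libraries, whereas Polr2e, Polr2f and Polr2i were called in 9 of 9 at the 3′ end and in 6, 1 and 7 at the 5′ end. Polr2i is 1.44 kb long, so its start and end windows overlap and the same bases can count for both. The restriction fragment that holds the start of Polr2e, 4510 bases, is longer than its gene of 3.85 kb. In genes this short the ends cannot be told apart well. Among Mediator genes, Med1, Med10, Med21, Med22 and Med29 were called at the 5′ end in 9 of 9, and Med9, Med19, Med25 and Med29 at the 3′ end. Supt6h and Taf15 had both, and Gtf2f1, which encodes the large subunit of TFIIF, was called at the 3′ end in 9 libraries and at the 5′ end in 1. Taf8, a histone-fold TAF, was called at the 3′ end in 9 libraries and at the 5′ end in none.

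**Figure D3:**
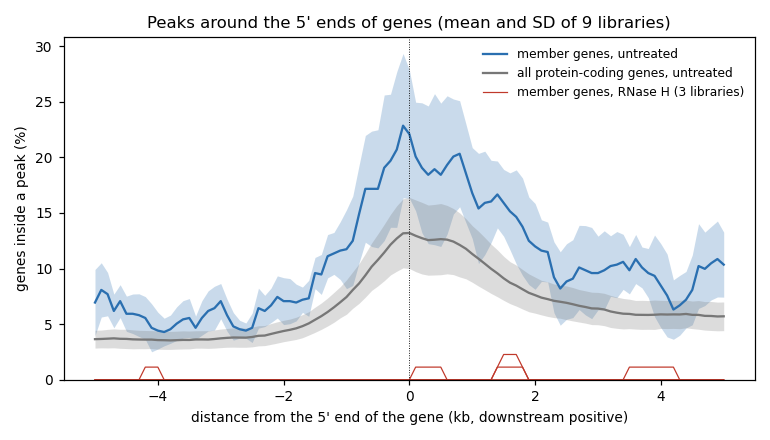
Percent of genes inside a peak at each distance from the 5′ end, for the 88 members and all 22380 protein-coding genes (lines, mean of the 9 untreated libraries, bands, SD), and for the members in the 3 RNase H libraries. At 100 bases upstream the members reached 22.9 ± 6.49% and all genes 13.2 ± 3.11%, and both fell away on either side.

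In the 500 bases below the 5′ end, 14 of the 15 members with a start called in 9 of 9 libraries (93.3%) had more G than C on the coding strand, where 72.5% of all genes with such starts did. Their median GC content was 66.2% and their median GC skew, the difference of G and C over their sum, was 0.138. Among the 32 members with no start peak in any library, 25 (78.1%) had positive skew, with a median of 0.0895 and a median GC content of 56.6%. In the 41 members with a start called in 1 to 8 libraries, 29 (70.7%) had positive skew. Their median skew was 0.0703 and their median GC content 62%. The skew of the members thus did not rise steadily with the number of libraries, but the order of these classes was not tested. Among all genes, positive skew was found in 72.5% with starts called in 9 libraries, 70.8% in 1 to 8 and 59.1% in none. The median skews of these genes were 0.0685, 0.0625 and 0.0311, in that order. Members with no start peak thus lay above all genes of that class. The exception among the 15 members was Gtf2a1, with a skew of -0.153. The restriction fragment that holds the 5′ end had a median length of 2354 bases for the 15, 2055 for the 41 and 1386 for the 32, against 2384.5, 1803 and 1314 bases for all genes in the same classes. GC content and fragment length were thus both higher where starts were called in more libraries, and their part in the calls was not tested.

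Many windows were shared with a neighbour. In 44 of 88 members the window held part of another protein-coding gene, where 7101 of all 22380 genes had such a window. A protein-coding 5′ end on the other strand lay within 1 kb upstream in 18 members and in 1601 of all genes. Both were thus more frequent among members. Their part in the higher share of members called in 9 of 9 libraries was not tested. Of these 18, 7 (38.9%, against 23.7% of all genes with such a neighbour) had a start called in 9 of 9 libraries and none was without a peak in its window, whereas of the other 70 members 8 (11.4%, against 10.2%) had a start called in 9 of 9. Med29 starts 243 bases from Paf1, of the PAF elongation complex, and Gtf2h1 starts 39 bases from Hps5. Of the 44 members with a window to themselves, 15 (34.1%, against 18.9% of all such genes) were called in 9 of 9, and of the 44 with a shared window 24 (54.5%, against 41.9%). A peak in a shared window cannot be assigned to 1 of its genes.

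Little of this signal was left in the RNase H libraries, whose lists held 3811 to 8034 peaks. Member windows had 3.77 kb under peaks in the RNase H library labelled siScramble, 1.07 kb in that labelled siDDX1 and 2.02 kb in that labelled siEXOSC3, against 108 to 262 kb in untreated libraries. Of the 77 members with any covered base, 76 had fewer in the RNase H libraries. All 77 had a peak in some untreated library, so a member with no RNase H peak could only count as lower. The same share over all genes was not counted. The drop passed in 29 members, including Polr2a, Polr2c, Polr2e, Polr2f, Polr2l, Med1, Med22, Taf15, Supt5h and Supt6h (adjusted p = 0.0388, exact permutation test, two-sided, 64 assignments of the RNase H label within groups, Benjamini-Hochberg over 12125 genes). No member passed in the other direction. Among all genes tested, 38.2% passed as lower and 2.1% as higher, so the members' share of 37.7% was near the background.

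The 29 members are those at the smallest p that 64 assignments allow, 0.0156. With 1 untreated library left out, 48 assignments remain and the smallest p is 0.0208. The count was then 34 without labelled siScramble replicate 1, 30 without labelled siDDX1 replicate 1 and 32 without labelled siDDX1 replicate 2, and 0 without any of the other 6 libraries (labelled siScramble replicates 2 and 3, labelled siDDX1 replicate 3 and labelled siEXOSC3 replicates 1, 2 and 3). Without a test, 33 of the 39 members called in 9 of 9 libraries (84.6%) had no peak in any RNase H library, and the share over all such genes was 80.0%.

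A peak was called in at least 1 RNase H library over 11 members (12.5%), where 13.5% of all genes had one. Of these 11, 7 were Gtf2 genes, and the TFII-I family accounted for 3 of them. Gtf2ird2 had 810 and 411 covered bases in the RNase H libraries labelled siScramble and siDDX1. Its untreated values were 0, 721 and 292 in labelled siScramble, 458, 0 and 0 in labelled siDDX1 and 0 in all 3 of labelled siEXOSC3. It was the 1 member with more covered bases after RNase H (p = 0.25, exact permutation test). Gtf2ird1 had an RNase H peak with identical bounds, 334 bases wide, in 2 libraries. Gtf2i, Gtf2ird1 and Gtf2ird2 are neighbouring, related genes on chromosome 5, and reads placed between near-identical copies were not examined here.

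The 15 RNase H peaks over members were narrow, 254 to 810 bases, and 9 of them lay where no untreated library had a peak. Taf11, a histone-fold TAF, had such a peak in 2 RNase H libraries, between 1366 and 1828 bases below its 5′ end. Polr2b had 1 near its 3′ end, at a place with peaks in 4 untreated libraries. Only the RNase H peak of Gtf2a1, 1486 to 1739 bases below its 5′ end, lay in a region called in 9 of 9 untreated libraries. Gtf2b, which encodes TFIIB, Gtf2f1, Gtf2h2, Gtf2i, Med1 and Taf2 had their RNase H peaks in 1 library each.

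The design asks whether depletion of DDX1 or EXOSC3 changes R-loops over these genes. No member differed in covered bases across the 3 groups after adjustment (exact permutation test of the F statistic over 280 splits, Benjamini-Hochberg over 11103 genes, adjusted p = 1 for each). None of the 11103 genes passed either (0%). The smallest p that 280 splits allow is 0.00357. After adjustment over 11103 genes, a gene at that p passes only if many other genes reach it too. A change limited to a few genes could thus not pass. At an unadjusted p under 0.05 the count was 1 of 77 members, against 2.8% of genes, and with the covered bases on a log2 scale no member or gene passed after adjustment.

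That member was Gtf2e2, which encodes the smaller subunit of TFIIE. It had 2889, 3700 and 3816 covered bases in labelled siScramble, 2017, 1540 and 2449 in labelled siDDX1, and 580, 1833 and 1875 in labelled siEXOSC3. Each labelled siScramble value lay above every value of the other 2 groups, which overlapped each other (means 3468 ± 505, 2002 ± 455 and 1429 ± 736, SD, n = 3 each, unadjusted p = 0.0143, adjusted p = 1, exact permutation test). Gtf2e2 was picked by its p on these same values, and the share of all genes so separated was not counted. Its main region, called in 9 of 9 libraries, lay in an intron 39532 to 43603 bases below the 5′ end. The fold enrichment of its strongest peak, in contrast, had a log2 difference of -0.03 ± 0.20 for labelled siDDX1 and -0.08 ± 0.20 for labelled siEXOSC3 against labelled siScramble (SE of the limma fit, adjusted p = 0.983 and 0.888).

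Med7, a middle subunit of Mediator, had 0, 276 and 1028 covered bases in labelled siScramble, 0 in each of 3 labelled siDDX1 libraries, and 1183, 488 and 1183 in labelled siEXOSC3 (unadjusted p = 0.05, exact permutation test). Its peaks formed 1 region across the start, from position -447 to 735 relative to the 5′ end. Med16, a tail subunit, had 0 in each of 3 labelled siScramble libraries, 505, 0 and 0 in labelled siDDX1, and 346, 589 and 1281 in labelled siEXOSC3 (unadjusted p = 0.0714, exact permutation test). Its peaks lay in 4 separate regions, and no single region was called in more than 2 libraries.

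Gtf2h1 had 2974, 3437 and 2480 covered bases in labelled siScramble, 2230, 1932 and 2473 in labelled siDDX1 and 2230 in each labelled siEXOSC3 library (unadjusted p = 0.0571, exact permutation test). Labelled siScramble lay above both other groups, by 7 bases at the nearest pair of values. Here too the gene was picked by its p, and the share of all genes so separated was not counted. The value of 2230 was that of 4 libraries whose only peak in the window was the start peak between 2 SspI cuts described above, of which the window holds 2230 bases. Gtf2f1 had 4314 bases in 5 libraries. Med23, Gtf2f2, Gtf2f1 and Med25 followed with unadjusted p between 0.0893 and 0.157, and in none of these 4 did a group stand clear of both others.

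**Figure D4:**
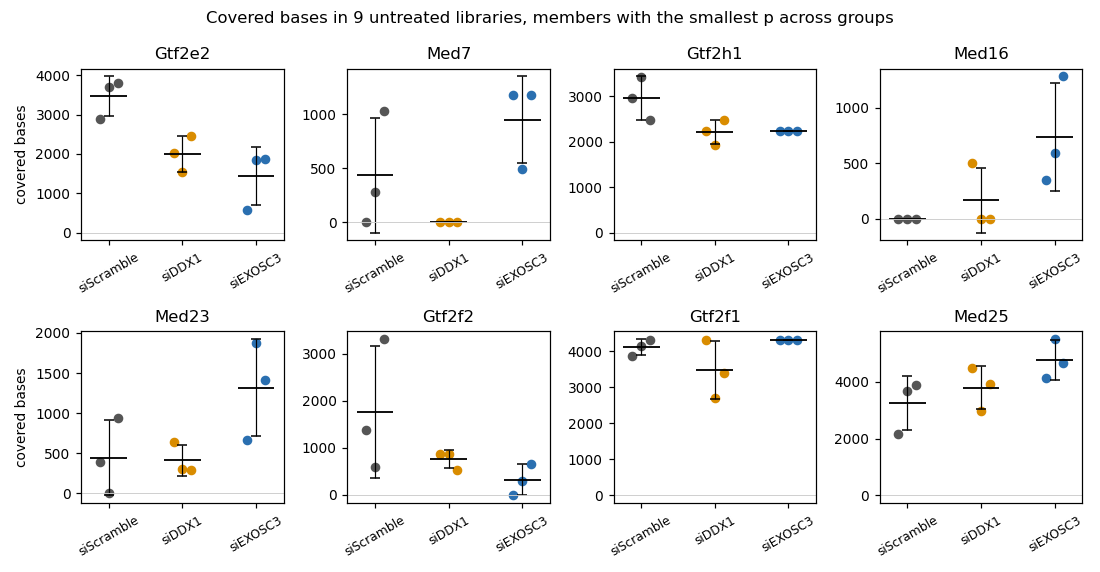
Covered bases in the 9 untreated libraries for the 8 members with the smallest unadjusted p across the 3 groups (points, libraries by title, bars, mean and SD, n = 3). Only Gtf2e2 and Gtf2h1 have labelled siScramble values that are all above those of both other groups, and no member passed after adjustment. The 8 were picked by p on these same values, and the share of all genes so separated was not counted.

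Members with a peak in 3 of 3 libraries of 1 group and in 0 of 3 of the other were Med16, for labelled siEXOSC3 against labelled siScramble, and Med7, for labelled siEXOSC3 against labelled siDDX1. That is 1 of 88 members (1.14%) in each of these 2 directions, where 0.429% and 0.371% of all genes had such a pattern. No member showed it in the other 4 directions. Of all genes, 0.0894% had a peak in labelled siDDX1 alone and 0.116% in labelled siScramble alone when these 2 were compared, 0.0849% in labelled siScramble and not labelled siEXOSC3, and 0.0983% in labelled siDDX1 and not labelled siEXOSC3. With 3 against 3 libraries no exact test of a pair can go below p = 0.1. Both calls ended when each untreated library was held to the same number of peaks, and Med16 also when only peaks with a −log10 q of at least 5, or within 1 kb of a transcript start, were kept. With 1 library left out, the count for labelled siEXOSC3 against labelled siScramble was 3 without labelled siScramble replicate 1 and 2 without labelled siEXOSC3 replicate 3. Against labelled siDDX1 it was 4 and 2 without labelled siDDX1 replicates 1 and 2, and 3 and 2 without labelled siEXOSC3 replicates 2 and 3. For labelled siDDX1 against labelled siScramble it was 4 without labelled siDDX1 replicate 1 and 2 without labelled siScramble replicate 1. The pattern is easier to meet with fewer libraries. With 1 library left out, the counts over all genes ranged from 115 to 235, 105 to 474 and 46 to 277 in these 3 comparisons, in that order. By peak names both patterns would read as present in siScramble and absent in a knockdown, siDDX1 for Med16 and siEXOSC3 for Med7.

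At the level of single regions, 43 of the 430 merged regions over members (10%) were called in 9 of 9 libraries and 200 (46.5%) in 1. In the whole genome the shares were 10.7% and 45.3% of 69497. Regions called in 9 of 9 had a median width of 4072 bases, and 23 of the 43 spanned a transcript start. Those called in 1 library had a median width of 322.5 bases, and 10 of 200 spanned one. A region called in 9 libraries joins overlapping peaks of all 9, so it tends to be wider and likelier to span a start. These values were not counted by class over the whole genome. A start region of Polr2j had peaks in 3 labelled siEXOSC3 libraries, 2 labelled siScramble libraries and no labelled siDDX1 library, as at Med7, so that 2 of 430 member regions (0.465%) were called in 3 of 3 and 0 of 3 libraries of these groups, against 0.506% of all regions. A region in Gtf2f2 and another in Med13l were called in 3 labelled siDDX1 and no labelled siEXOSC3 libraries (2 of 430, 0.465%, against 0.393%). An intronic region of Med13 was called in 3 labelled siScramble and no labelled siDDX1 libraries (0.233% of member regions, against 0.403%), and 1 of Med15 in 3 labelled siScramble and no labelled siEXOSC3 libraries (0.233%, against 0.512%). In the other 2 directions no member region had this pattern, against 0.2% and 0.544% of all regions.

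Fold enrichment gives the strength of a peak over the local background, and was compared on a log2 scale in the 39 members, of 5868 genes, with a peak in all 9 libraries, each library centred on its median. No member passed after adjustment in any of the 3 comparisons (limma, Benjamini-Hochberg over 5868 genes). Labelled siDDX1 against labelled siScramble had 0% of all genes called, labelled siEXOSC3 against labelled siScramble 0.375% and labelled siEXOSC3 against labelled siDDX1 0.528%, of which 0.102% and 0.204% of genes were called as higher in labelled siEXOSC3. At an unadjusted p under 0.05 the counts were 0, 4 and 3 members, where 7.81%, 14.8% and 16% of genes reached it. The 4 include both records of Taf9, which share the peak and have the same values. The median log2 difference over the members was -0.06, -0.03 and 0.01, and over all genes 0.01, -0.00 and -0.01. These comparisons share libraries and are given side by side only.

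Med28, a head subunit of Mediator, had the smallest p. Its strongest peak had a fold enrichment of 6.45, 8.67 and 9.60 in labelled siScramble, 6.11, 6.76 and 5.83 in labelled siDDX1 and 4.97, 4.89 and 8.36 in labelled siEXOSC3. After centring, the log2 difference of labelled siEXOSC3 against labelled siScramble was -0.60 ± 0.20 (SE, adjusted p = 0.146, limma). Med21, a middle subunit, went the other way in the same comparison, with 4.55, 8.67 and 9.04 in labelled siScramble, 10.5, 6.15 and 7.77 in labelled siDDX1, and 11.2, 10.4 and 13.5 in labelled siEXOSC3. Its log2 difference was 0.58 ± 0.20 (SE, adjusted p = 0.189, limma). In both genes the centred values of these 2 groups did not overlap, which held for 8 of the 39 members in this comparison. The share over all genes was not counted, so the lack of overlap does not set these 2 genes apart.

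Taf9, a histone-fold TAF whose 2 annotated records share the peak, had a log2 difference of -0.51 ± 0.22 in labelled siEXOSC3 against labelled siScramble (SE, adjusted p = 0.278, limma). Against labelled siDDX1, the members with the smallest p in labelled siEXOSC3 were Med1 at 0.48 ± 0.19, Polr2e at 0.54 ± 0.24 and Gtf2a1 at 0.47 ± 0.22 (SE, adjusted p = 0.219, 0.274 and 0.307, limma). Polr2e had fold enrichments of 18.8, 8.61 and 7.77 in labelled siDDX1 and 13.7, 15.3 and 32.2 in labelled siEXOSC3, so that the groups overlapped. Med1 changed sign to -0.45 when only peaks within 1 kb of a transcript start were used.

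Taf15 had the smallest p in labelled siDDX1 against labelled siScramble. Its fold enrichments were 17.4, 33.3 and 34.0 in labelled siScramble, 37.5, 27.3 and 32.9 in labelled siDDX1, and 28.4, 21.7 and 41.5 in labelled siEXOSC3. On the centred log2 scale the difference was 0.39 ± 0.20 (SE, adjusted p = 0.67, limma), followed by Med9 at -0.33 ± 0.19, Med25 at -0.32 ± 0.22 and Med21 at 0.30 ± 0.20. Of the 17 further genes of the pathway that could be tested, none passed after adjustment in either direction in any of the 3 comparisons, and 2, 4 and 2 had an unadjusted p under 0.05. In covered bases across groups 0 of 29 of them did, and 12 of 30 passed as lower after RNase H.

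**Figure D5:**
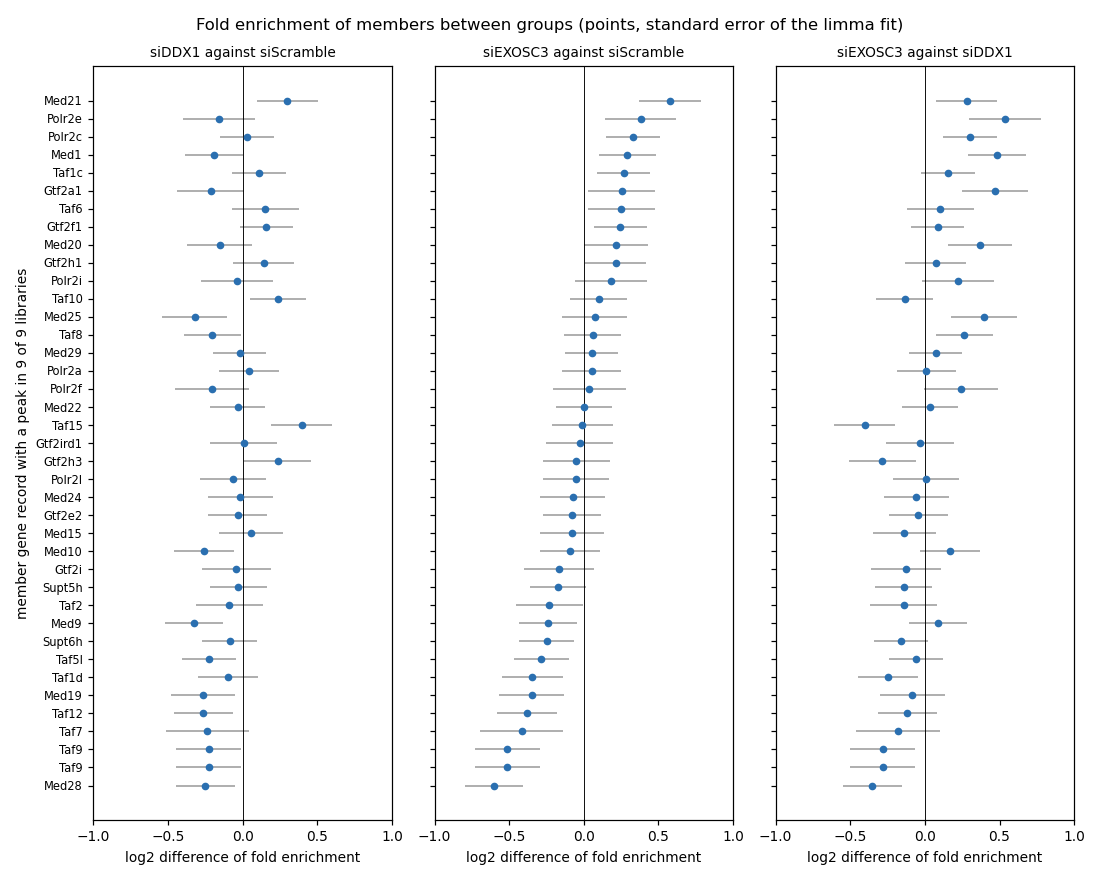
Log2 difference in fold enrichment of the 39 member records with a peak in all 9 untreated libraries, for the 3 pairs of groups by title (points, bars, SE of the limma fit, n = 3 libraries per group). Values run from -0.60 (Med28) to 0.58 (Med21), both in labelled siEXOSC3 against labelled siScramble, and none passed after adjustment.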

How the data were processed

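Peak lists of 12 DRIP-seq libraries were analysed, and the input library was not analysed here. Per the study's methods, reads were aligned to mm9 with Bowtie2 2.4.4, sorted with SAMtools, and peaks were called for each library against input with MACS2 2.2.6. The deposited values are MACS2 output: a fold enrichment (a ratio of pull-down to input), −log10 p-values and −log10 q-values, and a display score, with no further normalization by the authors. The score and the −log10 p-value were not used. The authors' read counts in merged peaks and their DESeq2 test on them were not used here, and depth is unknown. Peak number and width can rise with depth.

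Covered bases and the strongest fold enrichment were computed for all 22380 genes with Python 3.11.15, numpy 2.4.6, pandas 2.3.3 and pysam 0.24.0. Covered bases were compared with exact permutation tests, and log2 fold enrichment, centred on each library's median, with limma 3.58.1 in R 4.3.3. Figures were drawn with matplotlib 3.10.9. Adjustment followed Benjamini and Hochberg over all genes tested, at a threshold of 0.05. The tests were tested on simulated data. At most 3.79% of the peaks of an untreated list had identical bounds in another. The members, gene lists and tests were chosen with earlier results of these data known. Named were all Polr2 genes, the members of largest and smallest coverage and highest fold enrichment rank, those of smallest p in each test, all-or-none members and members with an RNase H peak, and others where a count or sequence turns on them, chosen after their values were seen.

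Alternatives were windows without the extension or around transcript starts, a stricter q-value, equal numbers of peaks, joined peaks, a minimum of 200 covered bases, log2 of covered bases plus 100, other scalings of fold enrichment, a replicate block, and leaving out each library.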

Additional observations from a re-analysis of the deposited data

How the results depend on the processing

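Peak lists carry no read counts, so calls near the caller's threshold depend on the depth of each library, which is unknown. The count of members called in every untreated library was 22 when only the 1 kb around transcript starts was searched and 39 to 43 with any 1 library left out. For RNase H, 18 members passed with the start windows, and 0 to 34 with 1 library left out. All-or-none members, 1 each for labelled siEXOSC3 against labelled siScramble and against labelled siDDX1, numbered 0 and 3 with start windows and 0 and 0 with equal numbers of peaks, and 0 in the first with a −log10 q of at least 5. With 1 library left out they ranged from 0 to 4 for labelled siDDX1 against labelled siScramble, 1 to 3 for labelled siEXOSC3 against labelled siScramble and 1 to 4 against labelled siDDX1. Over all genes the same counts ranged from 46 to 277, 115 to 235 and 105 to 474. Across the 3 groups and in each comparison of fold enrichment, 0 members passed under every alternative run, the range with 1 library left out being 0 to 0. For the 3 groups this count says little, because a change in a few genes could not pass even at the smallest p of 0.00357 (exact permutation test). The log2 difference of Med1 in labelled siEXOSC3 against labelled siDDX1 turned to -0.45 with start windows, and the other 298 of 299 values of single members kept their direction and their side of the threshold. The fit with a replicate block gave 0 members in each comparison of fold enrichment. The labels name no shared batch behind the replicate numbers, and they were not used as pairs because 1 of 9 same-numbered pairs had a correlation of deviations over 0.1 (range -0.108 to 0.135). As a hint from the data that pairing is not excluded, 7 of 9 same-numbered and 6 of 18 other pairs correlated above 0, and 5 of 9 libraries correlated best with their own number.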
